A study of Mus musculus with 2 samples.

Results

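Glycosaminoglycans are long sugar chains, most of them attached to proteoglycan core proteins, and 49 mouse genes for their synthesis and sulfation were examined for loss of captured methylated DNA after deletion of Uhrf1. The genes were chosen by name, as enzymes and transporters that start, extend, modify or sulfate the chains, and all 49 were found in the RefSeq gene table of GRCm38 (mm10), among 21887 protein-coding genes. They comprise 16 chondroitin and dermatan sulfate genes, 19 heparan sulfate genes, 3 keratan sulfate genes, 3 hyaluronan synthases, 5 genes of the linkage shared by chondroitin and heparan chains, and 3 genes that supply sulfate. A listed region was assigned to a gene when it overlapped the gene's span widened by 5 kb on both sides, which gave 94 of the 35861 regions in the list.

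The chains of chondroitin, dermatan and heparan sulfate are built in the Golgi on a short linkage sugar that begins with xylose, are extended by polymerases and are then epimerised and sulfated, with PAPS as the sulfate donor. Keratan sulfate is carried on other linkages, while hyaluronan is made without sulfate or a core protein at the plasma membrane. Cartilage matrix owes its swelling pressure to the sulfated chains of aggrecan, and inherited defects in several of these enzymes cause skeletal dysplasias in humans and mice. Uhrf1 binds hemimethylated DNA and recruits the maintenance methyltransferase Dnmt1, so that methylation is copied at replication.

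The Uhrf1 cKO group and the Control group were each represented by 1 library from primary chondrocytes of knee cartilage of C57BL/6-background mice at postnatal day 3. Both were confluent cultures given rhBMP-2 at 100 ng/ml for 24 h. The sources used here do not give the promoter that drives the recombinase, the number of animals or the extent of deletion, and a list of genomic regions cannot show whether the cells were chondrocytes. In such a culture, methylation lost in some cells and methylation lowered in every cell cannot be told apart. DNA bound by MBD2, a protein that recognises methylated CpG, was sequenced, and the authors listed the regions where the Control library exceeded the cKO library at a p limit of 1e-10. Regions higher in cKO cells were not analysed here, so every region described is one where the cKO signal was lower by construction. The cKO library kept 15039206 of 19760028 tags after duplicate removal (76.1%), and the Control library kept 9782276 of 21831989 (44.8%). The part of this difference in the regions was not tested. No value has a replicate, no p-value of a genotype difference was computed, and the intervals given cover counting error only.

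Each region carries the Control tag count, a fold and a false discovery rate (FDR) from the authors' deposited table. The fold is Control tags at the region's summit over the local background that the authors' caller expected from the cKO library. A larger fold means more Control signal relative to that background, not fewer cKO tags as such. The FDR sets how many regions an exchange of the libraries gave against how many are listed. The cKO tags were not listed but could be solved from the score, and the result was a whole number of tags for 81 of the 94 regions. The region-wide ratio used below is Control tags over the background expected from the cKO library at the Control depth. In the 81 regions this background is the cKO tags of the region scaled by 0.650. In 7 others it is the genome-wide floor of the authors' caller, and in 2 it comes from a wider window around the region. Medians and quartiles of the ratio include these regions without counted cKO tags. The ratio was lower than the authors' summit fold in all 90 regions where it could be computed, the fold being 2.27 times the ratio at the median.

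Ext2, Chst5 and Papss2 were the only members with a region within 1 kb of a listed transcript start, and Chst1 had the largest fold, in a region within 1 kb upstream of its annotated span. The 250 bases before their listed starts are therefore shown. Sequences are from RefSeq on GRCm38.p6 and run 5′ to 3′ on the gene's strand, with each CG dinucleotide, the target of methylation, in capitals. They lie at chr2:93822569-93822818 on the minus strand for Ext2, at chr8:111910200-111910449 on the minus strand for Chst5, at chr19:32595465-32595714 on the plus strand for Papss2 and at chr2:92600867-92601116 on the plus strand for Chst1.
Ext2: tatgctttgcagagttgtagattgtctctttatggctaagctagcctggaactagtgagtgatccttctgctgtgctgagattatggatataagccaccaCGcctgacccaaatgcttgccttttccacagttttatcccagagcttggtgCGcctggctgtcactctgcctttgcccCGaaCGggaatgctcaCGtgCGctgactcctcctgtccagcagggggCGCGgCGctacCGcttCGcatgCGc
Chst5: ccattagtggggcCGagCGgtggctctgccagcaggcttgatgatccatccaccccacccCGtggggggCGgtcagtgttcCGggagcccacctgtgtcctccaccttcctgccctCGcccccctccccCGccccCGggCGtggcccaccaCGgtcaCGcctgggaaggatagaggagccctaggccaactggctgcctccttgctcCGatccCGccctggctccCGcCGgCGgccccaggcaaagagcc
Papss2: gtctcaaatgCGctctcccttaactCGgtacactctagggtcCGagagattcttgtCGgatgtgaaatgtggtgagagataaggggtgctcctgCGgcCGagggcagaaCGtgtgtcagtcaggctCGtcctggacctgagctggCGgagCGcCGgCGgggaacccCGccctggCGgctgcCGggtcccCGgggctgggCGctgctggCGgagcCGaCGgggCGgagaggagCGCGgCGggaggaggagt
Chst1: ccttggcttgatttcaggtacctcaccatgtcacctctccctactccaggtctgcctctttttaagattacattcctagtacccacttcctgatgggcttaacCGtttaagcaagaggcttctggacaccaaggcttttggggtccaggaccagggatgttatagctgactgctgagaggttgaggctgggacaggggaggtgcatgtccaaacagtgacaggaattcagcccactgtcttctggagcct
The CG count of these 250 bases was 12 for Ext2, 16 for Chst5, 24 for Papss2 and 1 for Chst1. The motif CG reads the same on both strands, and 95.4% of all 21263 promoter windows of protein-coding genes held at least 1 copy. None of the 4 stretches was covered by a region: the regions lie upstream of them in Ext2, Papss2 and Chst1 and inside the gene in Chst5.

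Promoters of the glycosaminoglycan genes as a whole were not covered by listed regions. Promoter windows, running from 250 bases before to 50 after a transcript start, were on hand for 38 of the 49 members, 47 windows in all. Of these 47 windows 0 overlapped a region, beside 0.823% of the windows of all protein-coding genes, so that a count of 0 is near the background. The member windows held between 1 and 48 CG, with a median of 23 against 13 over all windows, and 38 of 47 held at least 10 (80.9%, against 56.8% of all windows). Among all windows, overlap was 0.663% for those with at least 10 CG and 1.03% for those with fewer. From a listed start to the nearest region the median distance was 16582 bp.

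**Figure D1:**
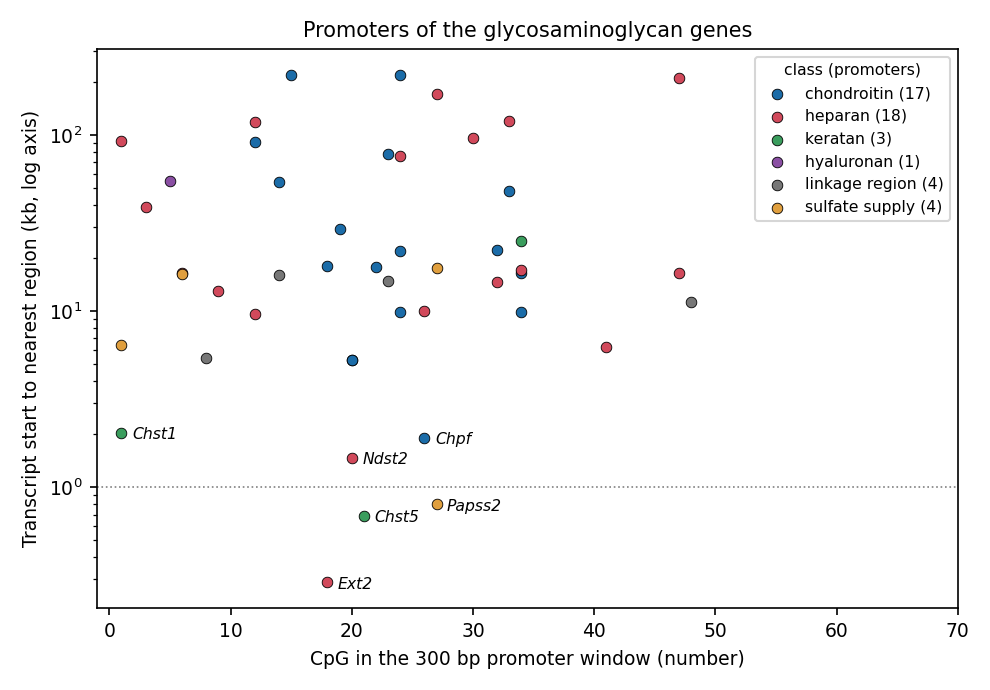
Distance from each listed transcript start to the nearest region (kb, log axis) against the number of CG in the promoter window of 300 bp, for 47 promoters of 38 members, coloured by class. The 3 promoters under the dotted line at 1 kb belong to Ext2 (288 bp), Chst5 (688 bp) and Papss2 (800 bp), and no region reached a window.

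At the level of whole genes, 32 of the 49 members (65.3%) held at least 1 region within 5 kb, beside 47.4% of all protein-coding genes. With the FDR at 5% or less, 24 members (49.0%) remained, beside 35.1% of all genes. The members are long genes, with a median span of 41.0 kb against 17.2 kb over all genes, and longer genes more often hold a region. Within span classes the shares were 9 of 16 members under 20 kb against 30.4% of all genes, 5 of 10 against 58.1% from 20 to 60 kb, 8 of 11 against 76.9% from 60 to 150 kb, and 10 of 12 against 87.0% from 150 kb. Only the shortest class lay above its background. Its 9 genes were Xylt2, B4galt7, Chpf, Chst12, Extl1, Ndst2, Chst1, Has3 and Slc26a2, and in Chpf, Extl1, Has3 and Slc26a2 no region had an FDR of 5% or less. Per 100 kb of widened span the members held 1.62 regions (95% exact Poisson interval 1.31 to 1.99), against 1.95 over all protein-coding genes.

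**Figure D2:**
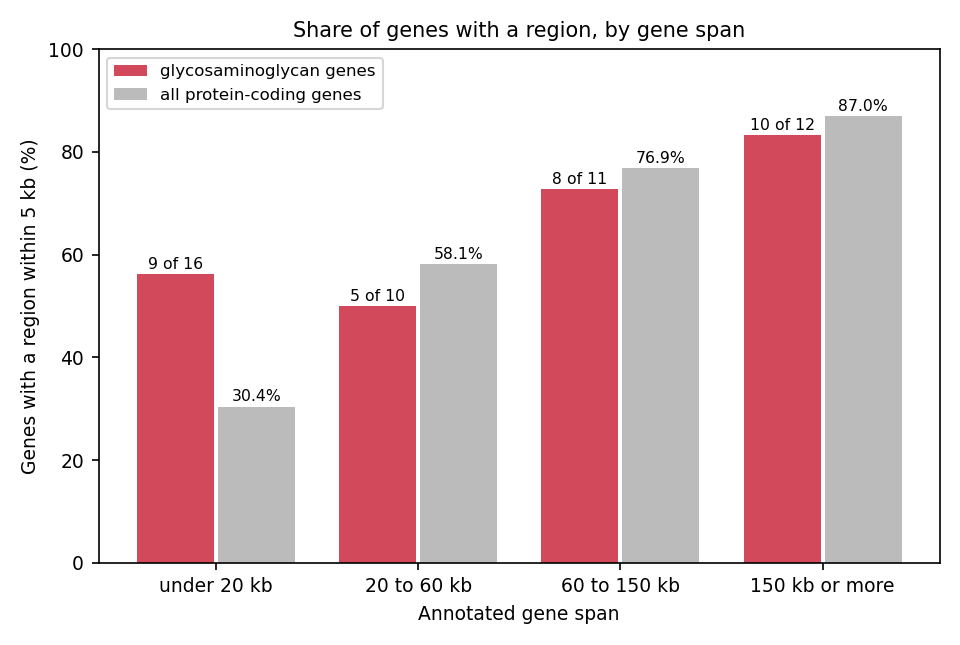
Share of genes with at least 1 region within 5 kb (%), by annotated gene span, for the 49 glycosaminoglycan genes (red, with counts) and all protein-coding genes (grey). The red bar is the higher only under 20 kb, where 9 of 16 members stand beside 30.4% of all genes.

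Regions were unevenly spread over the genes. No region was listed for 17 members, 12 members held 1 region, 12 held from 2 to 4, and 8 held at least 5 (16.3%, beside 5.29% of all genes). Those 8 were Ext1, Hs2st1, Ust, Chsy3, Hs6st3, Ext2, Papss1 and Sulf1. They accounted for 50 of the 94 regions, and the shortest of them, Papss1, spans 78.9 kb. The share of 5.29% is not matched for length. Among all genes from 150 kb the median was 3 regions and the upper quartile 6, and from 60 to 150 kb these were 2 and 3. No region was shared by a pair of members, 84 lay within the genes and 10 outside, between 288 and 4400 bp from the nearest end. Most of the members' regions thus lay within gene spans, which the assignment rule favours because it reaches only 5 kb beyond each gene. No share over all genes was set beside this count. Another protein-coding gene was overlapped by 3 of the 94 regions, and it is named with each of them below. Some regions of Ust, Hs2st1, Chst11, Chst12, Extl3 and Hs6st3 also overlap noncoding genes or pseudogenes, which are not named below.

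**Figure D3:**
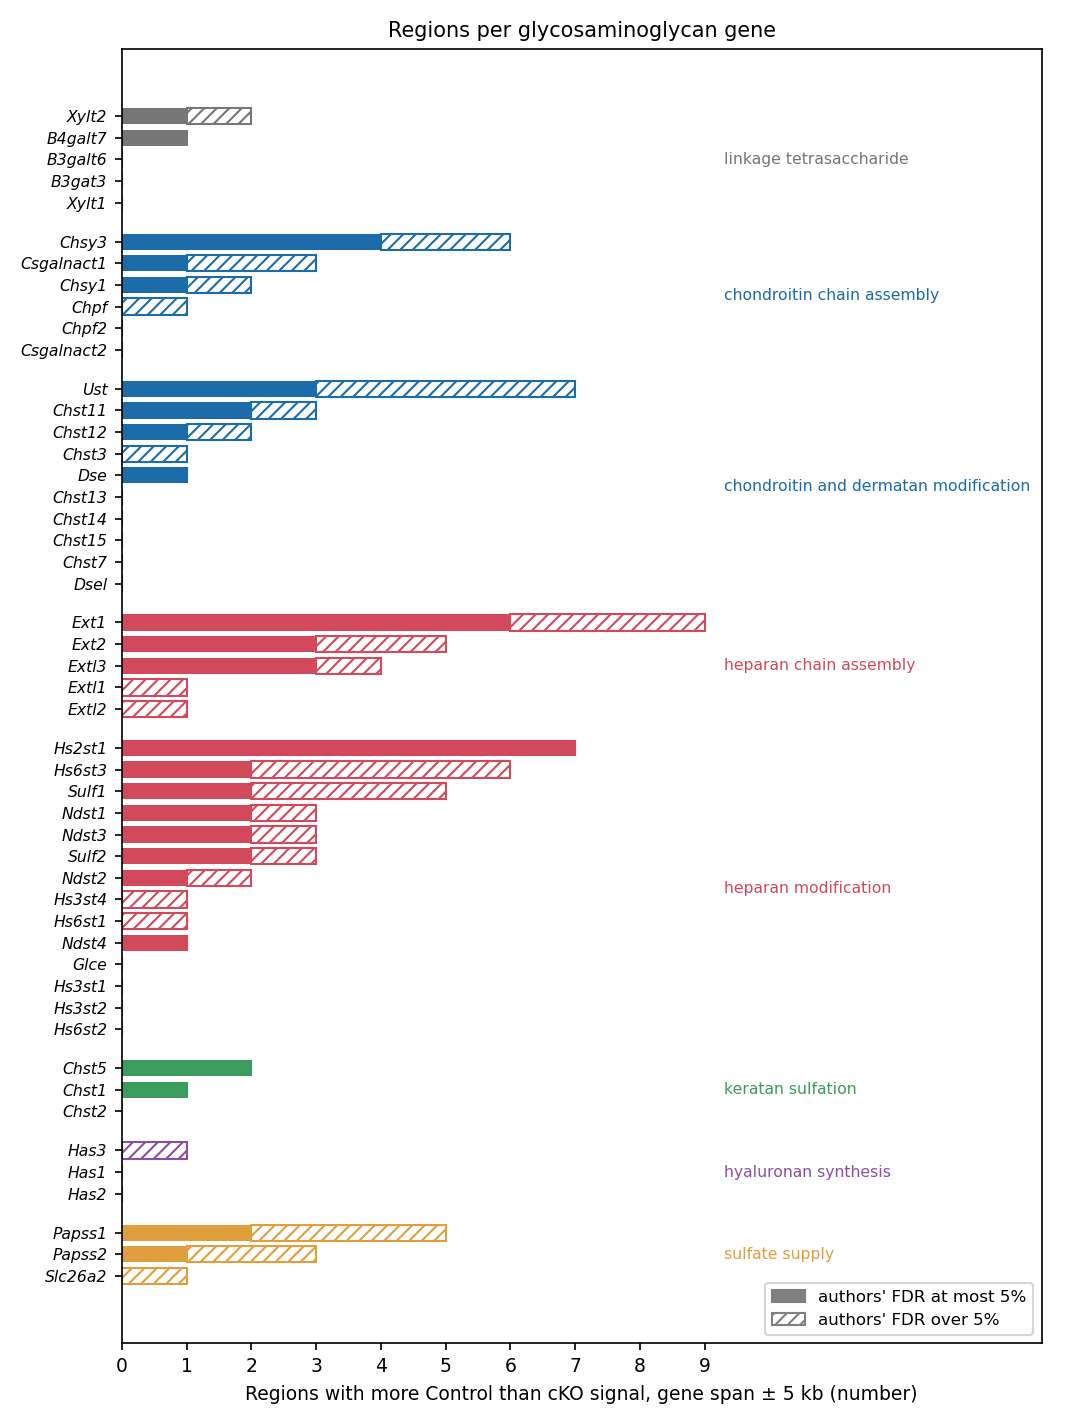
Number of regions with more Control than cKO signal within 5 kb of each of the 49 genes, by role; filled bars have an FDR of 5% or less and hatched bars a higher FDR. Ext1 has 9 regions, Hs2st1 and Ust have 7 each, and 17 genes have none.

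Summed over the 81 regions with counted tags, the cKO library held 3670 tags (2387 after scaling to the Control depth) and the Control library 11381, a ratio of 4.77. The median region held 43 cKO tags and 122 Control tags. The members' regions were no stronger than the list as a whole: their median region-wide ratio was 4.88 against 5.27, their median fold 11.66 against 12.18, and 55.3% had an FDR of 5% or less against 56.9%. The ratio was under 3 in 14 of the 81 regions, and 0 of these 14 had an FDR of 5% or less. Large folds came in 2 kinds. Of the 17 regions over 20-fold, 8 had an FDR of 5% or less, and the other 9 had at most 30 Control tags. In 7 member regions the cKO background was the genome-wide floor of the authors' caller rather than counted tags. These 7 held from 11 to 22 Control tags at folds of 23.07 to 42.85, and the lowest FDR among them was 27.3%.

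**Figure D4:**
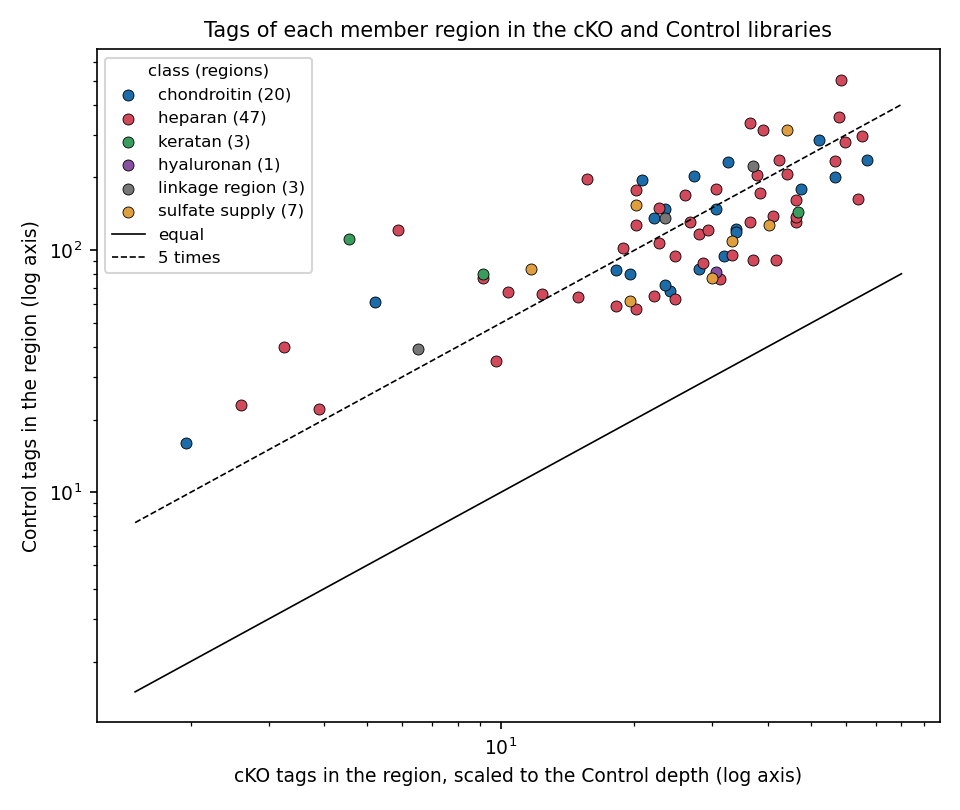
Control tags (log axis) against cKO tags scaled to the Control depth (log axis) for the 81 member regions with counted cKO tags, coloured by class; lines mark equal signal and 5 times more Control signal. All points lie above the line of equal signal, as listing requires, and the keratan gene Chst1 is the farthest above it, at 7 cKO tags before scaling and 111 Control tags.

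Among the genes that begin the linkage sugar, 2 of 5 held regions, beside 47.4% of all protein-coding genes. Their median span is 10.5 kb, and 30.4% of all genes under 20 kb held a region. Xylt2, 1 of a pair of xylosyltransferases that start every chondroitin and heparan chain, had 2 regions, both beyond its 3′ end. The nearer one (chr11:94662064-94662557, 1288 bp downstream) held 36 cKO tags and 136 Control tags, a ratio of 5.81 (95% exact interval 4.0 to 8.64), with a fold of 14.91 and an FDR of 0.02%. The farther one (chr11:94659142-94659445) held 10 cKO tags and 39 Control tags with a fold of 15.31, but it overlaps the gene Mrpl27 and its FDR was 50.76%. B4galt7, which adds the first galactose, had 1 region inside the gene (chr13:55605321-55605829), with 57 cKO tags and 223 Control tags, a ratio of 6.01 (4.48 to 8.19). Xylt1, B3galt6 and B3gat3, the other xylosyltransferase, the second galactosyltransferase and the enzyme that adds the closing glucuronic acid, had no region.

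Chain assembly genes of chondroitin held 12 regions in 4 of 6 genes, beside 47.4% of all protein-coding genes. Their median span is 48.0 kb, and 58.1% of all genes from 20 to 60 kb held a region. Chsy3, a chondroitin synthase, held 6 of the 12 regions within 236 kb of gene, and 4 of the 6 had an FDR of 5% or less. Its strongest region with an FDR of 5% or less (59265061 to 59265517 on chromosome 18) held 8 cKO tags and 61 Control tags, a ratio of 11.7 (5.59 to 28.4) and a fold of 27.26. A neighbouring region of Chsy3 (59267147 to 59267871) held 50 cKO tags and 232 Control tags, a ratio of 7.13. Another Chsy3 region, of 11 Control tags over the genome-wide floor, lies between them. Chsy1, the paralogous synthase, held 2 regions. The one with the lower FDR (chr7:66172398-66172942), 856 bp inside its 3′ end, held 47 cKO tags and 148 Control tags, a ratio of 4.84 (3.47 to 6.87) with an FDR of 0.02%. Csgalnact1, which adds the first N-acetylgalactosamine and so commits the chain to chondroitin, had 3 regions. Its region with the lowest FDR (chr8:68535575-68536059) held 73 cKO tags and 179 Control tags, a ratio of 3.77 (2.86 to 5.02). The largest fold of this role, 42.85, belongs to another Csgalnact1 region (chr8:68683281-68683492), which had 19 Control tags over the genome-wide floor and an FDR of 51.41%. Chpf, a polymerising cofactor, had a single region with 37 cKO tags, 68 Control tags and an FDR of 100%. Csgalnact2 and Chpf2 had none.

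The modifying enzymes of chondroitin and dermatan sulfate held 14 regions in 5 of 10 genes, beside 47.4% of all protein-coding genes. Their median span is 40.8 kb, and 58.1% of all genes from 20 to 60 kb held a region. Of the 14 regions, 7 belonged to Ust. Ust transfers sulfate to uronic acid, and its 7 regions had folds between 5.71 and 31.35. The strongest of those with an FDR of 5% or less (chr10:8451773-8452260) held 32 cKO tags and 196 Control tags, a ratio of 9.42 (6.46 to 14.1) and a fold of 21.42 at an FDR of 0. The fold of 31.35 came from a region of 20 Control tags with an FDR of 58.46%. Chst11, the sulfotransferase that acts on carbon 4 of N-acetylgalactosamine and without which mice develop a severe chondrodysplasia, had 3 regions over 211 kb. The strongest of Chst11 (chr10:83127896-83128514) held 80 cKO tags and 285 Control tags, a ratio of 5.48 (4.26 to 7.11). A second Chst11 region (chr10:83026648-83027152) held 103 cKO tags and 235 Control tags, a ratio of 3.51. Both had an FDR of 0.02% or less. Chst12, a related sulfotransferase for the same position, was denser for its size, with 2 regions in 19.7 kb. The region nearer its 3′ end (chr5:140522083-140522562) held 34 cKO tags and 136 Control tags, a ratio of 6.15 (4.20 to 9.24), and the other held 30 cKO tags and 80 Control tags at an FDR of 12.14%. Dse, the epimerase that turns chondroitin into dermatan sulfate, had 1 region 4067 bp inside its 3′ end with 52 cKO tags and 119 Control tags, a ratio of 3.52. Chst3, which sulfates carbon 6 and whose loss causes spondyloepiphyseal dysplasia in humans, had 1 region of 3 cKO tags and 16 Control tags with an FDR of 100%. No region was listed for Chst7, Chst13, Chst14, Chst15 or Dsel.

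The chain assembly genes of heparan sulfate held 20 regions in 5 of 5 genes, or 3.39 regions per 100 kb (2.07 to 5.23), against 1.53 (0.792 to 2.68) in the assembly genes of chondroitin. These intervals overlap, and the value over all genes was 1.95. A region at any FDR was held by 47.4% of all genes and by 76.9% of those from 60 to 150 kb. The median span of the 5 heparan assembly genes is 97.8 kb. A region with an FDR of 5% or less was held by 3 of the 5 heparan assembly genes and 3 of the 6 chondroitin ones, beside 35.1% of all genes. Ext1 and Ext2 form the heparan polymerase, and loss of either causes multiple osteochondromas in humans, growths of cartilage-capped bone. Ext1 held 9 regions, the most of any member, with 565 cKO tags and 1465 Control tags in sum, a ratio of 3.99 (3.62 to 4.40). Its folds were even, between 4.48 and 13.89, and 6 of its 9 regions had an FDR of 5% or less. The Ext1 region with the highest ratio (chr15:53122494-53123017) held 47 cKO tags and 180 Control tags, a ratio of 5.89. Another (chr15:53068126-53068559) spans the gene's lower-coordinate end and held 43 cKO tags and 117 Control tags, a ratio of 4.18 (2.93 to 6.08) at an FDR of 0.8%.

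Ext2 had 5 regions, and 1 of them was the region nearest to any listed start among the members. That region (chr2:93822856-93823680) begins 288 bp upstream of the start, beyond the stretch of Ext2 sequence shown above. It held 87 cKO tags and 233 Control tags, a ratio of 4.12 (3.21 to 5.33), with a fold of 10.05 and an FDR of 0. The highest ratio among the Ext2 regions with counted tags was found 8920 bp inside the start (chr2:93812978-93813648), which held 41 cKO tags and 131 Control tags, a ratio of 4.91. The largest Ext2 fold, 23.07, came from 11 Control tags over the genome-wide floor and had an FDR of 100%. Extl3, which adds the first N-acetylglucosamine and commits the chain to heparan sulfate, had 4 regions with folds between 7.63 and 12.15, and 3 had an FDR of 5% or less. The remaining exostosin-like genes had weak regions only. Extl1 had 1 region of 15 cKO tags and 35 Control tags at an FDR of 100%, and Extl2 had 1 of 98 cKO tags and 163 Control tags at an FDR of 11.6%.

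The modifying enzymes of heparan sulfate held 32 regions in 10 of 14 genes, at 1.15 per 100 kb (0.786 to 1.62). A region was held by 47.4% of all protein-coding genes and by 76.9% of those from 60 to 150 kb. The heparan modifying genes have a median span of 125 kb and span up to 732 kb. Over all genes the density was also lower in long genes, at 2.25 per 100 kb from 60 to 150 kb and 1.2 from 150 kb. The median ratio was 5.89 in the modifying genes (quartiles 3.59 and 8.60) and 4.18 in the assembly genes (3.24 and 4.66), ranges that overlap. The N-deacetylase/N-sulfotransferases make the first modification, on which later ones depend, and each of the 4 had at least 1 region with an FDR of 5% or less, beside 35.1% of all genes. Ndst1, Ndst3 and Ndst4 are long genes, in the span classes where 76.9% and 87.0% of all genes held a region at any FDR. For genes under 20 kb, the class of Ndst2, this share was 30.4%. Shares by span class were not computed at an FDR of 5% or less. Ndst1 held 75 cKO tags and 328 Control tags over 3 regions. Its strongest region (60688260 to 60688753 on chromosome 18, 3766 bp inside the lower-coordinate end) held 9 cKO tags and 121 Control tags, a ratio of 20.7 (10.5 to 46.3) and a fold of 39.28. Ndst3 had the highest sum ratio of the members with several regions, all with counted tags: 35 cKO tags and 259 Control tags over 3 regions, a ratio of 11.4 (7.97 to 16.7). The longest Ndst3 region (chr3:123579523-123580359) held 24 cKO tags and 197 Control tags with a fold of 37.9, and a second (chr3:123553099-123553475) held 5 cKO tags and 40 Control tags with a fold of 23.98. In these regions of Ndst1 and Ndst3 the cKO library held at most 24 tags before scaling. Ndst2 is the shortest of the family, at 10.8 kb, and had the highest density among members with several regions, 9.60 per 100 kb. Its upstream region (chr14:20736035-20736679), 1465 bp before the start, held 56 cKO tags and 336 Control tags, a ratio of 9.22 (6.93 to 12.5), and it also overlaps the gene Camk2g. Its other region held 12 Control tags over the genome-wide floor. Ndst4 had 1 region of 65 cKO tags and 237 Control tags, a ratio of 5.61.

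Hs2st1, which sulfates the uronic acid of heparan sulfate, had 7 regions, and all 7 had an FDR of 5% or less. No other member with at least 5 regions had every region under that limit. The Hs2st1 folds were between 9.95 and 20.75. Its strongest (chr3:144486930-144487335) held 14 cKO tags and 77 Control tags, a ratio of 8.46 (4.75 to 16.2), and overlaps the gene model Gm43707. Another (chr3:144548930-144549390) held 40 cKO tags and 169 Control tags, a ratio of 6.50. For 1 of the 7, with 230 Control tags and a fold of 13.54, the cKO tags could not be solved. Among the enzymes that sulfate glucosamine at carbon 6, Hs6st3 had 6 regions along its 732 kb, with 195 cKO tags and 501 Control tags in sum, a ratio of 3.95 (3.34 to 4.68), and 2 of the 6 had an FDR of 5% or less. Hs6st1 had 1 region with 51 cKO tags and 96 Control tags at an FDR of 44.33%. Hs6st2 had none. It lies on the X chromosome, as does Chst7, where 23.1% of protein-coding genes held a region.

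Sulf1 and Sulf2 are extracellular enzymes that remove sulfate from carbon 6 of heparan sulfate and so tune growth factor signalling. Sulf2 had 3 regions with 221 cKO tags and 957 Control tags, a ratio of 6.66 (5.75 to 7.74). The longest Sulf2 region (chr2:166130842-166132070, 1229 bp) held 90 cKO tags and 506 Control tags, the most Control tags of any member region, with a ratio of 8.64 and a fold of 19.91. Sulf1 had 5 regions with 233 cKO tags and 782 Control tags, a ratio of 5.16 (4.45 to 6.00). Its strongest (chr1:12707847-12708408) held 31 cKO tags and 177 Control tags, a ratio of 8.78 and a fold of 23.07. Of the 3 members that sulfate carbon 3, Hs3st1 and Hs3st2 had no region, and Hs3st4 had 1 region of 91 bp with 15 Control tags, a fold of 49.44 and an FDR of 18.77%, whose cKO tags could not be solved. Glce, the heparan epimerase, had none.

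**Figure D5:**
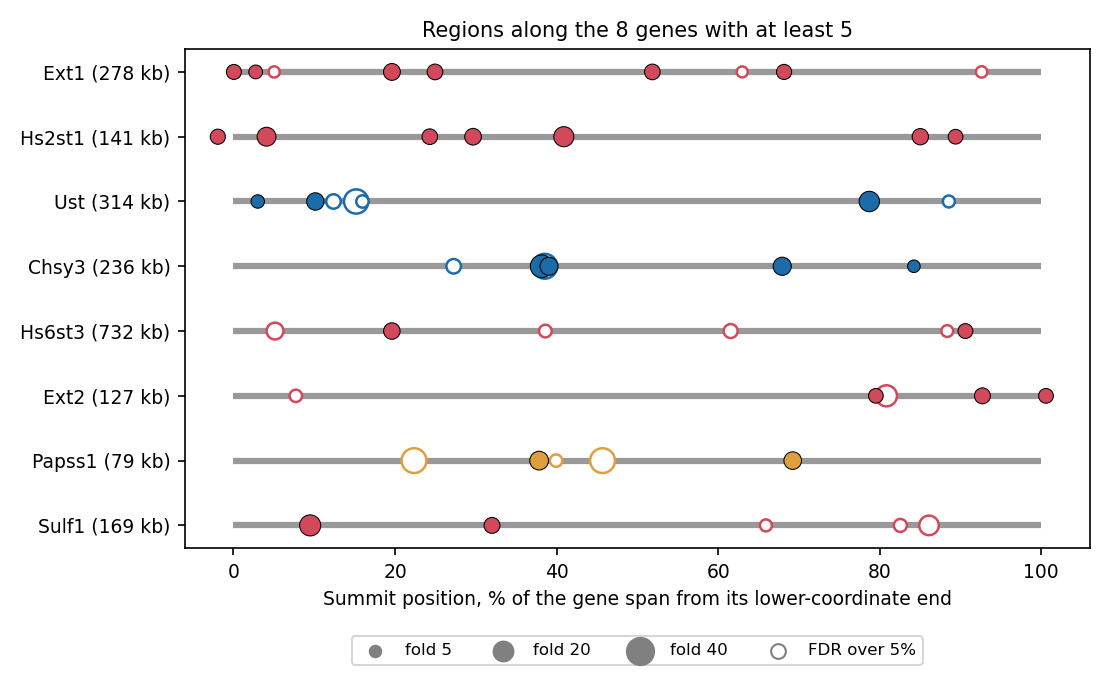
Position of each region's summit along the 8 genes with at least 5 regions, as a percentage of the gene span from its lower-coordinate end; marker area grows with the authors' fold, open markers have an FDR over 5%, and colours mark class as in the other plots. Regions of Ext1 and Hs2st1 run along the gene, while in Chsy3 3 of 6 lie side by side.

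Of the 3 keratan sulfotransferases, Chst1 and Chst5 held 3 regions, all with an FDR of 5% or less. Chst1, which sulfates galactose in keratan sulfate, had the largest ratio and the largest fold of all member regions. The Chst1 region (chr2:92598608-92599089) held 7 cKO tags and 111 Control tags, a ratio of 24.4 (11.4 to 62.0) and a fold of 58.41 at an FDR of 0. It lies 543 bp upstream of the annotated gene and 2028 bp from the listed start whose upstream bases, with a single CG, are shown above. Chst5, which sulfates N-acetylglucosamine of keratan sulfate in the mouse cornea, had 2 regions inside the gene. The one 688 bp inside its start (chr8:111908975-111909511) held 72 cKO tags and 144 Control tags, a ratio of 3.07 (2.30 to 4.14) and a fold of 6.92 at an FDR of 3.77%. The other (chr8:111905297-111905680) held 14 cKO tags and 80 Control tags, a ratio of 8.79 (4.94 to 16.8) and a fold of 17.45. All 3 regions are close to or within short genes. The interval of the Chst1 region lies well above the members' median ratio of 4.88. That of the deeper Chst5 region begins only just above this median. Chst2, which sulfates N-acetylglucosamine too, had no region.

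Of the 3 hyaluronan synthases, 1 held a region, a share near that of all genes of their length (30.4% under 20 kb, 58.1% from 20 to 60 kb). Has2, the main synthase of cartilage, and Has1 had none. Has3 had 1 (chr8:106867865-106868286), 1956 bp beyond its lower-coordinate end, with 47 cKO tags and 81 Control tags, a ratio of 2.65 (1.83 to 3.88), a fold of 6.90 and an FDR of 100%. An FDR of 100% means that the exchanged comparison gave at least as many regions at that p.

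The genes that supply sulfate held 9 regions in 3 of 3 genes, beside 47.4% of all genes, or 4.61 per 100 kb (2.11 to 8.75), against 1.95 over all genes. All genes from 60 to 150 kb, the span class of Papss1 and Papss2, had a share of 76.9% and a density of 2.25. Those under 20 kb, the class of Slc26a2, had 30.4% and 2.50, and both densities lie within the interval. At an FDR of 5% or less the sulfate supply genes held 3 regions, in 2 of the 3 genes. Papss1 and Papss2 make the sulfate donor PAPS, and mutation of Papss2 is the cause of the brachymorphic mouse. Papss1 had 5 regions. The Papss1 region with the highest ratio among those with counted tags (chr3:131594443-131594912) held 31 cKO tags and 154 Control tags, a ratio of 7.64 (5.17 to 11.6), and the largest (chr3:131618951-131619639) held 68 cKO tags and 315 Control tags, a ratio of 7.12 (5.46 to 9.40). Both had an FDR of 0. The highest Papss1 fold, 32.96, was that of 2 regions of 22 and 15 Control tags over the genome-wide floor, with an FDR of 27.3% and 84.54%. Papss2 had 3 regions with 131 cKO tags and 320 Control tags, a ratio of 3.76 (3.06 to 4.64). The upstream Papss2 region (chr19:32594466-32594915), 754 bp before the annotated gene, held 18 cKO tags and 84 Control tags, a ratio of 7.17 (4.28 to 12.7) with an FDR of 0.16%, and the others, deep in the gene, had an FDR of 11.52% and 6.62%. Slc26a2, the sulfate transporter mutated in human diastrophic dysplasia, had 1 region outside the gene with 46 cKO tags and 77 Control tags, a ratio of 2.57 (1.76 to 3.79) and an FDR of 100%.

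Regions within 1 kb of either end were found for 6 members (12.2%), beside 9.64% of all protein-coding genes, a share near the background. All 6 also held such a region at an FDR of 5% or less, beside 6.11% of all genes. They were Ext2, Chst1 and Papss2 upstream of the start, Chst5 just inside the start, Chsy1 just inside the 3′ end, and Ext1 at the lower-coordinate end. The cKO tags of these 6 regions were between 7 and 87 and the Control tags between 84 and 233.

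Of the 4 classes of chain, heparan and chondroitin held regions at densities and median ratios that differed by less than counting error or the spread between regions, while keratan and hyaluronan have too few genes to compare. Chondroitin genes held regions in 9 of 16 (7 with an FDR of 5% or less) and heparan genes in 15 of 19 (11), beside 47.4% (35.1%) of all protein-coding genes. Keratan genes held them in 2 of 3 (2) and hyaluronan genes in 1 of 3 (0). The heparan genes are longer, with a median span of 110 kb against 40.8 kb for chondroitin. Among genes of at least 60 kb, 11 of 14 heparan and 5 of 6 chondroitin genes held a region, and among shorter genes 4 of 5 and 4 of 10. At an FDR of 5% or less these were 10 of 14 and 5 of 6 among the longer genes, and 1 of 5 and 2 of 10 among the shorter. Over all genes the share at any FDR was 30.4% under 20 kb, 58.1% from 20 to 60 kb, 76.9% from 60 to 150 kb and 87.0% from 150 kb. The counts at any FDR for the longer genes thus lie near the background, and the shorter genes are too few to compare. Regions per 100 kb were 1.54 (1.15 to 2.02) in heparan genes and 1.55 (1.01 to 2.27) in chondroitin genes. Keratan genes had 4.11 (0.847 to 12.0) and hyaluronan genes 1.07 (0.0271 to 5.96), intervals too wide to place them apart from the others. The median region-wide ratio was 4.66 in heparan and 4.84 in chondroitin regions. Quartiles were 3.37 and 6.50 in heparan and 3.53 and 8.20 in chondroitin regions. These values include regions without counted cKO tags: 2 heparan and 3 chondroitin regions at the genome-wide floor, and 2 chondroitin regions over a wider window. The order of the medians therefore does not rank the classes, and the sums of counted tags have the other order. Summed over regions with counted tags, heparan genes held 2199 cKO tags and 6877 Control tags, a ratio of 4.81, and chondroitin genes 922 cKO tags and 2762 Control tags, a ratio of 4.61.

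Genes around the pathway were counted by the same rule, in lists of 20 genes for chain breakdown, 13 for sugar nucleotide and donor supply, 10 for other synthesis steps and 28 for core proteins. Regions were held by 41 of these 71 genes (57.7%, beside 47.4% of all protein-coding genes), and by 26 at an FDR of 5% or less (36.6%, beside 35.1%). The second share is near the background. The 71 genes have a median span of 32.3 kb against 17.2 kb over all genes. Of all genes from 20 to 60 kb 58.1% held a region, so the first share is near that of this span class. Among lysosomal and other breakdown genes, 11 of 20 held a region (55.0%) and 9 one with an FDR of 5% or less (45.0%). In Hgsnat, an acetyltransferase of heparan breakdown, a region held 10 cKO tags and 98 Control tags (fold 47.31). Glb1, the lysosomal galactosidase, held 11 regions, among them 1 with 6 cKO tags and 47 Control tags (fold 27.65). The largest fold of this list, 80.67, was in a region of 99 Control tags beside Gusb, the glucuronidase, where cKO tags were not counted.

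Donor supply genes held regions in 7 of 13 (53.8%, beside 47.4% of all genes), and 2 of 13, Gfpt1 and Ugdh, did so at an FDR of 5% or less (15.4%, beside 35.1%). Ugdh makes UDP-glucuronic acid, and its strongest region held 43 cKO tags and 243 Control tags (fold 17.81). Gfpt1, the entry enzyme of the hexosamine pathway, had a region of 54 Control tags with a fold of 18.65, again without counted cKO tags. Other synthesis genes held regions in 6 of 10 (beside 47.4% of all genes), and in 4 of 10 at an FDR of 5% or less (beside 35.1%). The largest fold among the latter was that of Fam20b, the xylose kinase, with 34 cKO tags and 168 Control tags (fold 15.81). Behind it came Hs3st3b1, a further heparan sulfotransferase for carbon 3, with 76 cKO tags and 337 Control tags (fold 13.68), and the galactosyltransferase B4galt1, with 29 cKO tags and 105 Control tags (fold 11.71). Core protein genes held regions in 17 of 28 (60.7%, beside 47.4% of all genes and 58.1% of those from 20 to 60 kb). Their median span is 32.9 kb, and 11 held a region at an FDR of 5% or less (39.3%, beside 35.1%). Perlecan (Hspg2), a heparan sulfate proteoglycan of cartilage, had a region with 4 cKO tags and 75 Control tags (fold 58.85), and syndecan-1 (Sdc1) had 1 with 10 cKO tags and 101 Control tags (fold 37.44). Neurocan (Ncan), a brain proteoglycan, had a region of 54 Control tags with a fold of 50.07, where cKO tags were not counted. Aggrecan (Acan) and versican (Vcan), the large chondroitin sulfate proteoglycans, had 1 region each, neither with an FDR of 5% or less.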

How the data were processed

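MBD-seq of captured genomic DNA was analysed for 1 Uhrf1 cKO and 1 Control library. The authors ran MACS 1.4.2 with Control reads in the place of enriched DNA and cKO reads in that of background (p limit 1e-10, band width 300 bp, shift d 58 bp), per the file headers. The submitters' processing notes name mm10; an aligner is not given in the sources used here. Per the labels the DNA was sheared to fragments near 300 bp, much longer than d, and how this bears on region extents and summit folds was not tested. The deposited tag count of a region is the whole number of its Control tags after duplicate removal. The deposited score is minus 10 times the log10 of a Poisson p. A fold, per the file headers, is the authors' ratio of Control to expected background at the summit, and the FDR is a percent value as deposited. The depths after filtering stand in the results.

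The background expected over a region was solved from the score and the Control tags as a Poisson mean. It was kept where the authors' fold then gave a whole summit height (tolerance 0.05), which held for 34160 of 35861 regions (95.3%). It was a whole number of cKO tags (tolerance 0.02) after scaling in 30460 regions (84.9%), lay at the genome-wide floor in 1809 (5.04%) and was not recovered in 1756 (4.90%). The method was also run on simulated regions, made with the same formulas that it inverts and only with whole cKO tags as background. That run therefore cannot show how often the solved backgrounds of the authors' list are right. Ratios with counted cKO tags have exact (Clopper-Pearson) 95% intervals, and region counts exact Poisson ones.

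The members and lists were chosen with earlier results of these data known. Every member is accounted for. Values per region are given for members with a region within 1 kb of an end, the 3 with most regions, the 3 densest with at least 2 regions, the largest fold in each role, keratan and hyaluronan genes, and folds over 20 at an FDR of 5% or less, and for further members chosen after their values were seen. Related genes are up to 3 per list by fold. Promoter windows and sequences come from a RefSeq table of GRCm38.p6, which matched 38 of 49 members; Ndst4, Has3, Chsy3, Extl3, Has2, Sulf1, Csgalnact1, Xylt1, Ext1, Slc26a2 and Ndst1 had none, and their ends are given by coordinate. No test of the genotypes was possible with 1 library each, and shares are set beside those of all protein-coding genes. The alternatives were stricter limits on p and FDR, other spans and windows, summits and joined regions. Tables were handled in pandas 2.3.3 and NumPy 2.4.6 under Python 3.11.15, intervals came from SciPy 1.17.1 and plots from Matplotlib 3.10.9.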

Additional observations from a re-analysis of the deposited data

How the results depend on the processing

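The number of members with a region within 5 kb was between 24 and 35 under every alternative tried, against 32 as reported. The share of all protein-coding genes moved too, against 47.4% as reported. It was 35.1% at an FDR of 5% or less, which gave the 24 members. With spans widened by 10 kb, which gave the 35, it was 54.7%. Of 56 values under 10 alternatives, 47 stayed within 1.5 times the reported count. With an FDR of 5% or less, 52 regions were assigned to members instead of 94, and 26 related genes held one instead of 41. The 1 hyaluronan gene with a region became 0 at p limits of 1e-15 and 1e-20, at an FDR of 5% or less and within the gene span alone, where keratan genes with a region were 1 instead of 2. Members with a region near an end were 11 of 49 within 2 kb, where the share of all protein-coding genes was 16.6%. Within 500 bp they were 2 of 49, beside 5.75% of all genes. Within 1 kb, as reported, they were 6 of 49, beside 9.64%, so the window sets the count. Leaving out regions at the genome-wide floor, an alternative added after seeing the data, gave 87 regions and 32 members, beside 46.3% of all genes. Without Ext1, Hs2st1 and Ust, 71 regions remained, 1.41 per 100 kb. No paired analysis was possible because each group has 1 library and no test was run. A region of few tags is limited by counting error, and differences between animals cannot be seen.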
